A study of Homo sapiens with 4 samples.

Results

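The Rab small GTPases are the 60 protein-coding genes, of 28274 genes in the deposited table, whose symbol in GENCODE 29 is RAB followed by digits and at most 1 letter. Their transcripts were compared between 2 libraries of FYB1 knockdown cells (titled sh-FYB1) and 2 control libraries (titled NC, with a source name that gives no treatment) of the human cell line named J-gammal in the labels. The labels do not say whether the controls carried a construct, whether both knockdown libraries carry the same one, or whether the libraries of a group come from separate cultures, so p-values cover only the variation among these libraries, and this may be technical. FPKM here means reads per kilobase of merged exon, scaled by the authors' divisor for each library, which differs from its sum of reads. All 11 T cell markers listed reached a mean of 1 FPKM, with summed levels of 1075 and 1314 FPKM in knockdown libraries 1 and 2 and 1452 and 1345 FPKM in controls 1 and 2. These markers went both ways. CD3D (262 FPKM in knockdown and 449 FPKM in control libraries), CD3E, CD247, CD2, CD5 and CD7 were lower in both knockdown libraries than in both controls. CD3G, TRAC, LAT and CD28 were higher in both, and LCK overlapped. Over all genes averaging at least 1 FPKM, 34.6% were lower and 26% higher without overlap. The 7 myeloid markers summed to at most 0.580 FPKM in any library. Of 6 B cell markers 2 reached 1 FPKM, and they summed to 12.9 and 17.5 FPKM in knockdown libraries 1 and 2 and 26.6 and 23.6 FPKM in controls, mostly from CD79A (13.5 FPKM in knockdown and 22.9 FPKM in control libraries). Of 4 NK cell markers NKG7 alone reached 1 FPKM, with 9.92 FPKM in knockdown and 11.3 FPKM in control libraries. Fewer cells with a transcript and less of it per cell cannot be told apart in such libraries.

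Rab proteins are molecular switches of membrane traffic. Exchange factors (GEFs) load them with GTP on a membrane, where they recruit effectors such as tethers and motor adaptors, and GTPase-activating proteins (GAPs) return them to the GDP form, which GDI proteins extract and keep in the cytosol. Each Rab marks particular compartments, and in T cells they direct the recycling of the T cell receptor to the contact with an antigen-presenting cell, the delivery of lytic granules and the sorting of integrins. FYB1, the knockdown target, encodes the adaptor ADAP, which acts between the T cell receptor and integrins.

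The Rab fold binds the phosphates of GTP through a glycine-rich loop, and the bases that encode it show how alike the members are in this stretch only. The stretches below are coding sequence from GENCODE 29 transcripts, 5′ to 3′, with the codons of the loop in capitals. They belong to the 3 members called by the read-based test, to RAB6A as the close relative of one of them, to the most abundant member, and to RAB22A and RAB23, which had the highest fold changes.
RAB20: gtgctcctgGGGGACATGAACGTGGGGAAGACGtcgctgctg
RAB6B: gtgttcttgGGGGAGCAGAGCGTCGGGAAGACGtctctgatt
RAB6A: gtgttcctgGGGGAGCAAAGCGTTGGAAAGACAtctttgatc
RAB18: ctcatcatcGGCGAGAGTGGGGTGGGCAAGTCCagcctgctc
RAB7A: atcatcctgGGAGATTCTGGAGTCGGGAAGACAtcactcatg
RAB22A: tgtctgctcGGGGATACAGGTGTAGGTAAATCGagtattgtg
RAB23: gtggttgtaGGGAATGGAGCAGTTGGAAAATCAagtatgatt

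The loop was searched in frame as 8 codons, a glycine codon, any 4 codons, a glycine codon, a lysine codon and a serine or threonine codon. It was found in 56 of the 60 members (93.3%), against 5.37% of 15843 protein-coding genes of the table, and the members without a match were RAB40B, RAB40C, RAB6C and RAB6D. RAB6B and RAB6A share 35 of the 42 bases shown and 78.5% of their aligned coding bases. Their longest identical run in any annotated transcript was 20 bases. The same measure was 26 bases for RAB5C with RAB5B, 16 for RAB1B with RAB1A, 36 for RAB11B with RAB11A and 55 for RAB40C with RAB40B. RAB6C and RAB6A share a run of 164 bases, and RAB6D and RAB6C one of 398. Reads of RAB6C (5 and 5 in knockdown libraries, 4 and 1 in controls) and of RAB6D (4 and 3 in knockdown libraries, 5 in each control) are therefore uncertain.

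Of the 60 members, 43 reached a mean of 1 FPKM over the 4 libraries and were tested. The other 17 were RAB3B, RAB4B, RAB6C, RAB6D, RAB7B, RAB17, RAB25, RAB27B, RAB31, RAB32, RAB34, RAB36, RAB38, RAB39A, RAB40A, RAB41 and RAB42. Their means were 0.0164 to 0.676 FPKM, and 15 of these 17 had fewer than 25 reads in every library. RAB3B and RAB4B, the 2 exceptions, had 175 and 120 reads against 121 and 132, and 38 and 53 reads against 36 and 15, in knockdown 1 and 2 against control 1 and 2. The low members included relatives of abundant ones. RAB27B had 16 and 17 reads in knockdown libraries, against 17 and 15 in controls. RAB7B had 0 and 0 reads in knockdown libraries, against 4 and 2 in controls, too few for a ratio. RAB25, an epithelial member, had 0 and 4 reads in knockdown libraries, against 0 and 1 in controls.

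In every library RAB7A, which drives late endosomes toward lysosomes, was the most abundant member per kilobase, followed by RAB1B of the route from the endoplasmic reticulum to the Golgi and by RAB11B of recycling endosomes, and only these 3 averaged 50 FPKM or more. Another 21 members averaged 10 to 50 FPKM and 19 averaged 1 to 10 FPKM. Summed over all 60 members the levels were 654 and 722 FPKM in knockdown libraries 1 and 2 and 788 and 761 FPKM in controls 1 and 2. As a share of the FPKM of all genes these sums were 0.250% and 0.240% in the knockdown libraries and 0.240% and 0.246% in the controls, so the groups overlapped in share but not in sum.

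**Figure D1:**
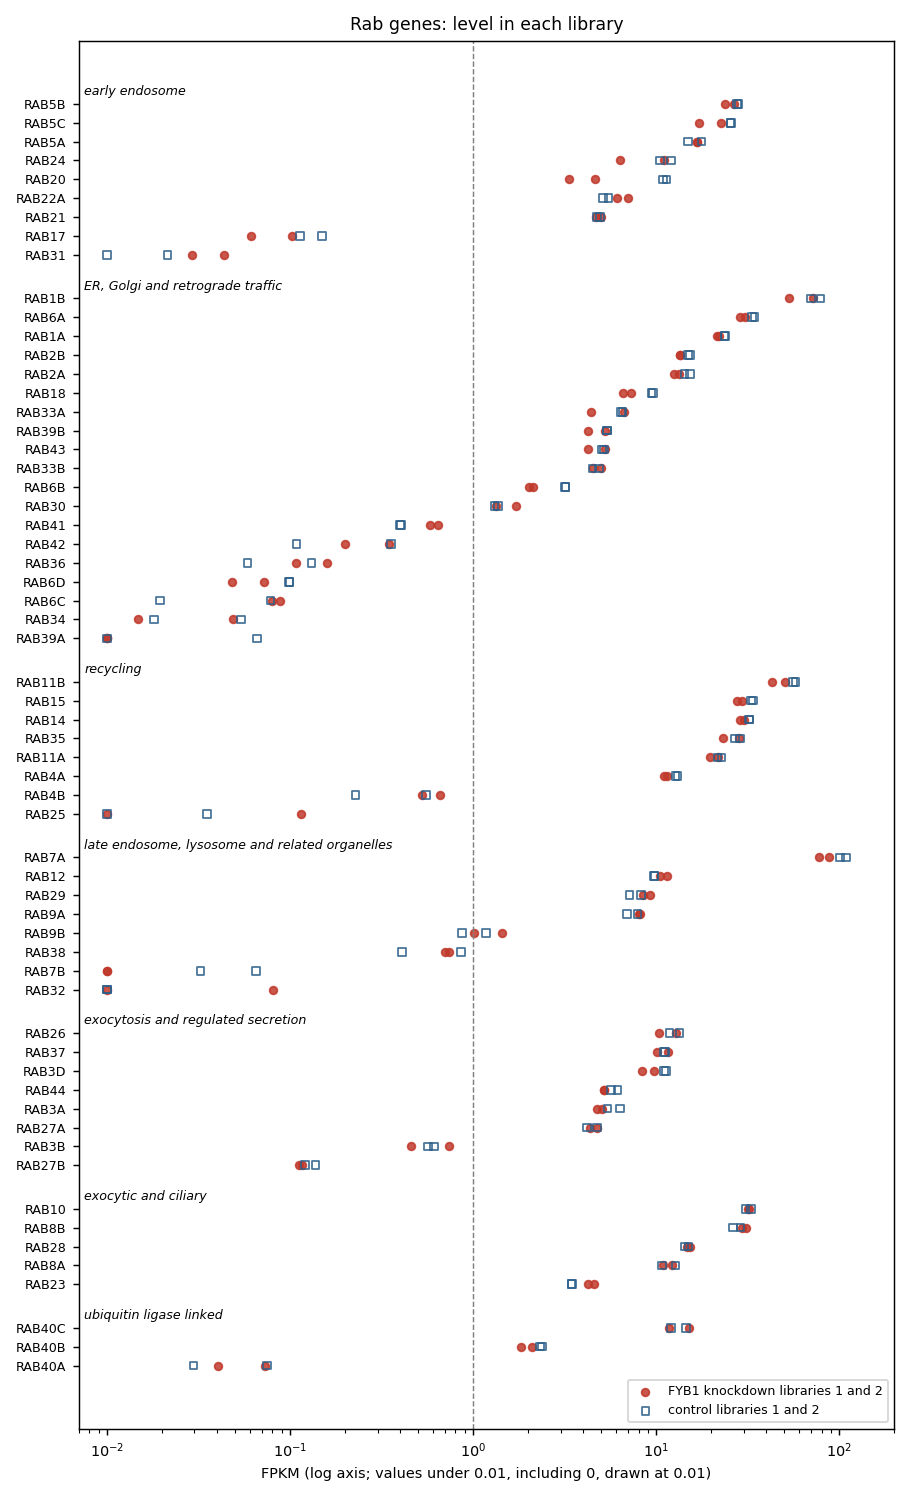
Level of each of the 60 Rab genes in each library, in FPKM on a log axis, grouped by role and ordered by mean within a group. Red points are knockdown libraries, open blue squares are controls, the dashed line marks the minimum mean of 1 FPKM, and RAB20 is the member in which the red points lie farthest below the squares among those to the right of that line.

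The comparison asks which Rab transcripts differed when FYB1 was lowered. The target itself stood at 6.18 and 4.53 FPKM in knockdown libraries 1 and 2, against 17.6 and 20.1 FPKM in controls 1 and 2, which puts its knockdown mean at 28.5% of control. By limma-trend on log2(FPKM + 1), with Benjamini-Hochberg adjustment over the 13172 genes tested, 0 of 43 Rab genes passed an adjusted p of 0.05 in either direction, where 0.137% of all genes did as lower, 0.0683% as higher and 0.205% in all. At an unadjusted p under 0.05 the same test held 5 lower and 2 higher Rab genes, against 14.9% lower and 8.51% higher among all genes. Limma-voom on the whole reads recovered from the FPKM steps called 3 Rab genes, RAB20, RAB6B and RAB18, all lower, and 0 higher, where 5.80% of all genes were called lower, 1.94% higher and 7.74% in all. At an unadjusted p under 0.05 limma-voom held 7 lower and 2 higher Rab genes, against 18.1% lower and 10.3% higher among all genes. The members' count of lower calls, 3 of 43, is near that background. All fold changes below are knockdown minus control on the log2(FPKM + 1) scale with their standard error, which understates the change of low genes, unless limma-voom is named.

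RAB20, a GTPase of endosomes and of phagosome maturation in macrophages whose transcription is known to respond to hypoxia, had the largest difference of the family. It stood at 3.32 and 4.60 FPKM in knockdown libraries 1 and 2, counted in 93 and 143 reads, against 11.4 and 10.9 FPKM in controls 1 and 2, from 287 and 277 reads. Both knockdown libraries lay far under both controls, and their mean was 35.6% of that of the controls. The limma-trend fold change was -1.30 ± 0.14 (adjusted p = 0.0588) and the limma-voom one -1.49 ± 0.20 (adjusted p = 0.00395), so RAB20 fell by the read-based test and missed the threshold of the main one. Of the 13172 genes tested, 28 had a lower fold change. Without any 1 library the limma-voom fold change was -1.74 to -1.27. Limma-trend called RAB20 in some alternative settings, among them sums of reads as library totals (adjusted p = 0.0406). It did not under quantile normalization (adjusted p = 0.0603), with no filter on low values (0.292) or with a pseudocount of 0.1 (0.0729). Nor did it when knockdown library 1 or knockdown library 2 was left out, with limma-trend fold changes of -1.11 and -1.49. No exon of RAB20 overlaps another annotated gene (chromosome 13, 110523066 to 110561733, hg38).

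RAB6B, a relative of the Golgi GTPase RAB6A that in other tissues is found mainly in neurons, had 2.01 and 2.13 FPKM in knockdown libraries 1 and 2 (222 and 262 reads), against 3.19 and 3.16 FPKM in controls, from 319 reads each. The groups did not overlap, and the replicates within each lay close together. Of its exon bases 6.34% overlap SRPRB on the opposite strand (chromosome 3, 133824239 to 133895836, hg38). RAB6B fell by limma-voom (-0.62 ± 0.15, adjusted p = 0.0365), while limma-trend gave -0.45 ± 0.11 (adjusted p = 0.135). RAB6A, which moves vesicles from the Golgi back to the endoplasmic reticulum, stood at 30.4 and 28.6 FPKM in knockdown libraries, against 34.4 and 33.3 FPKM in controls (-0.19 ± 0.11, limma-trend adjusted p = 0.308), and was thus more than 10 times as abundant as RAB6B in each library.

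RAB18, which links the endoplasmic reticulum to lipid droplets, had 6.60 and 7.30 FPKM in knockdown libraries (757 and 930 reads), against 9.59 and 9.44 FPKM in controls, from 994 and 986 reads. Its groups did not overlap either (chromosome 10, 27504174 to 27542237, hg38). RAB18 fell by limma-voom (-0.45 ± 0.12, adjusted p = 0.0491) and missed the limma-trend threshold (-0.41 ± 0.10, adjusted p = 0.129). The limma-voom calls of RAB6B and RAB18 both ended without knockdown library 1 (adjusted p of 0.106 and 0.108), without control 1 (0.303 and 0.455), without control 2 (0.155 and 0.255) and when library totals were sums of reads (0.0822 and 0.114), with fold changes of -0.66 to -0.32 over these alternatives and the fit without knockdown library 2.

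**Figure D2:**
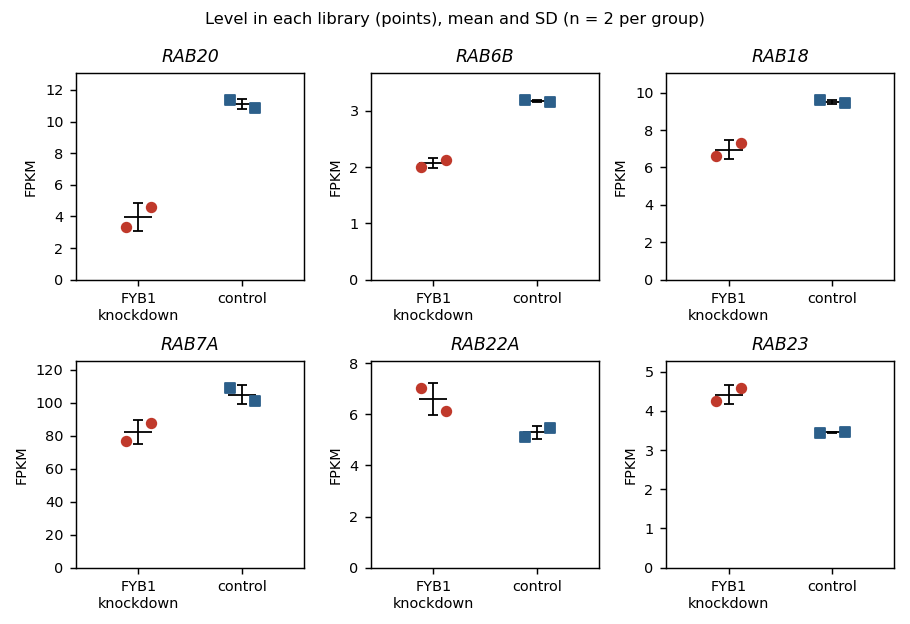
FPKM of 6 Rab genes in each knockdown library (red, left) and control library (blue, right), with the mean and SD of each group (n = 2). RAB20 averaged 3.96 FPKM in knockdown and 11.1 FPKM in control libraries, while RAB22A and RAB23 were higher in both knockdown libraries than in both controls.

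Of the other 6 tested members placed in the early endosome group 0 were called by limma-trend or limma-voom, against 0.205% and 7.74% of all genes. RAB22A was higher at an unadjusted p under 0.05 by both tests and RAB5C lower by limma-voom. Over all genes limma-voom held 10.3% higher and 18.1% lower at that level, and limma-trend 8.51% and 14.9%. RAB5A, RAB5B and RAB5C control the fusion of early endosomes and share effectors such as EEA1. RAB5B, the most abundant, had 23.8 and 26.5 FPKM in knockdown libraries, against 28.1 and 27.7 FPKM in controls (-0.15 ± 0.11, limma-trend adjusted p = 0.424). RAB5C had 17.1 and 22.6 FPKM in knockdown libraries, against 25.7 and 25.5 FPKM in controls (-0.37 ± 0.15, adjusted p = 0.219 by limma-trend), and 30.4% of its exon bases overlap other genes. RAB5A had 16.8 and 16.6 FPKM in knockdown libraries, within the 17.7 and 14.9 FPKM of the controls. RAB22A, which sorts cargo from early to recycling endosomes, was higher in both knockdown libraries, at 7.02 and 6.14 FPKM, than in controls, at 5.12 and 5.48 FPKM (0.27 ± 0.10, limma-trend adjusted p = 0.208, unadjusted 0.0474). RAB21, which carries integrins, averaged 4.82 ± 0.20 FPKM in knockdown and 4.83 ± 0.15 FPKM in control libraries (SD, n = 2 each). RAB24 had 6.36 and 11.04 FPKM in knockdown libraries, against 12.04 and 10.5 FPKM in controls, so the knockdown libraries differed from each other more than the groups did, and 44.8% of its exon bases overlap MXD3.

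Among the 12 tested members of the endoplasmic reticulum and Golgi, 10 had lower means (median -0.17), against 54.3% of all genes. Of these 10, 7 were lower in both knockdown libraries than in both controls, as were 34.6% of all genes. When library totals were sums of reads, 8 of the 12 had lower means (median -0.05), against 39.2% of all genes (median 0.08). Under quantile normalization 7 of the 12 had lower means (median -0.07), against 49.0% of all genes (median 0.01). RAB1B had 53.0 and 72.0 FPKM in knockdown libraries, against 78.8 and 70.0 FPKM in controls. For 42.6% of its exon bases RAB1B overlaps genes on the opposite strand. Its knockdown library 2 lay between the controls (-0.26 ± 0.18, limma-trend adjusted p = 0.400). The other 9 of these 12 beside RAB6B, RAB18 and RAB1B had fold changes of -0.21 to 0.11, with RAB33A lowest and RAB30 highest. RAB1A, which acts with RAB1B between the endoplasmic reticulum and the Golgi, had 21.5 and 21.97 FPKM in knockdown libraries and 23.7 and 23.6 FPKM in controls (-0.12 ± 0.10, limma-trend adjusted p = 0.472).

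All 6 tested recycling members had lower means, against 54.3% of all genes, with fold changes of -0.28 to -0.09. Limma-trend and limma-voom called 0 of them, where they called 0.137% and 5.80% of all genes lower. At an unadjusted p under 0.05 there was 1 lower by limma-voom and 0 by limma-trend, against 18.1% and 14.9% of all genes. RAB11B, of the slow recycling route, was lowest, at 42.7 and 50.7 FPKM in knockdown libraries, against 55.9 and 57.5 FPKM in controls (-0.28 ± 0.13, limma-trend adjusted p = 0.255). Its relative RAB11A had 19.8 and 21.8 FPKM in knockdown libraries, overlapping the 22.7 and 21.6 FPKM of the controls. RAB35, which returns T cell receptors to the cell surface, had 23.2 and 28.2 FPKM in knockdown libraries and 28.6 and 27.0 FPKM in controls, also overlapping. When library totals were sums of reads, which moved the median of all genes to 0.08, 3 of the 6 recycling members had lower means and their median was -0.02, against -0.15 in the main test with -0.03 over all genes. Under quantile normalization 2 had lower means, with a median of 0.04 against 0.01 over all genes.

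The late endosomal and lysosomal group divided between its most abundant member and the rest. RAB7A had 77.1 and 87.6 FPKM in knockdown libraries, against 108.9 and 101.1 FPKM in controls, with no overlap (-0.35 ± 0.14, limma-trend adjusted p = 0.205, unadjusted 0.0452). Under quantile normalization its fold change was 0.00. The other 4 tested members, RAB9A, RAB9B, RAB12 and RAB29, had higher means with fold changes of 0.11 to 0.18, and none was called (0 by limma-trend or limma-voom at an unadjusted p under 0.05). Over all genes 54.3% had lower means, and limma-trend held 8.51% and limma-voom 10.3% as higher at that unadjusted level. RAB29, a partner of the kinase LRRK2, had 8.43 and 9.24 FPKM in knockdown libraries, against 8.26 and 7.15 FPKM in controls (0.18 ± 0.11, limma-trend adjusted p = 0.357).

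Of the 6 tested members of regulated secretion 5 had lower means, against 54.3% of all genes. Limma-trend and limma-voom called 0 of them, where they called 0.137% and 5.80% of all genes lower. At an unadjusted p under 0.05 each held 1 (RAB3D, lower), against 14.9% and 18.1% of all genes. When library totals were sums of reads, 3 of the 6 had lower means, against 39.2% of all genes. Under quantile normalization 4 of the 6 had lower means, against 49.0% of all genes. RAB27A, which docks lytic granules in cytotoxic lymphocytes, had 4.73 and 4.36 FPKM in knockdown libraries, and 4.18 and 4.75 FPKM in controls (0.02 ± 0.11, limma-trend adjusted p = 0.908). RAB3D, a secretory granule member, had 8.33 and 9.67 FPKM in knockdown libraries, against 11.01 and 11.3 FPKM in controls, without overlap (-0.29 ± 0.11, limma-trend adjusted p = 0.195, unadjusted 0.0392). Of its exon bases 24.9% overlap other annotated genes. RAB26, the member of this group with the highest level, had 10.3 and 12.8 FPKM in knockdown libraries and 11.8 and 13.4 FPKM in controls (-0.12 ± 0.13, limma-trend adjusted p = 0.581). RAB3A, RAB37 and RAB44 had fold changes of -0.22 to -0.03.

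The exocytic and ciliary group held the highest fold change of the family. RAB23, a regulator of Hedgehog signalling at the cilium, had 4.24 and 4.58 FPKM in knockdown libraries, against 3.44 and 3.46 FPKM in controls, without overlap (0.28 ± 0.10, limma-trend adjusted p = 0.181, unadjusted 0.0321). The RAB23 exons overlap those of BAG2 on the opposite strand over 57.7% of their bases, and with the use of strand not given in the sources used here its reads cannot be assigned with certainty. RAB10, which delivers vesicles to the plasma membrane, had 31.9 and 32.0 FPKM in knockdown libraries, within the 32.8 and 30.7 FPKM of the controls. RAB8A, RAB8B and RAB28 had fold changes of -0.02 to 0.13. Of the RAB40 members, which carry a SOCS box that recruits a ubiquitin ligase, RAB40C had 11.8 and 15.01 FPKM in knockdown libraries and 14.5 and 12.1 FPKM in controls, and RAB40B had 2.10 and 1.83 FPKM in knockdown and 2.32 and 2.38 FPKM in control libraries (-0.18 ± 0.13, limma-trend adjusted p = 0.426).

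**Figure D3:**
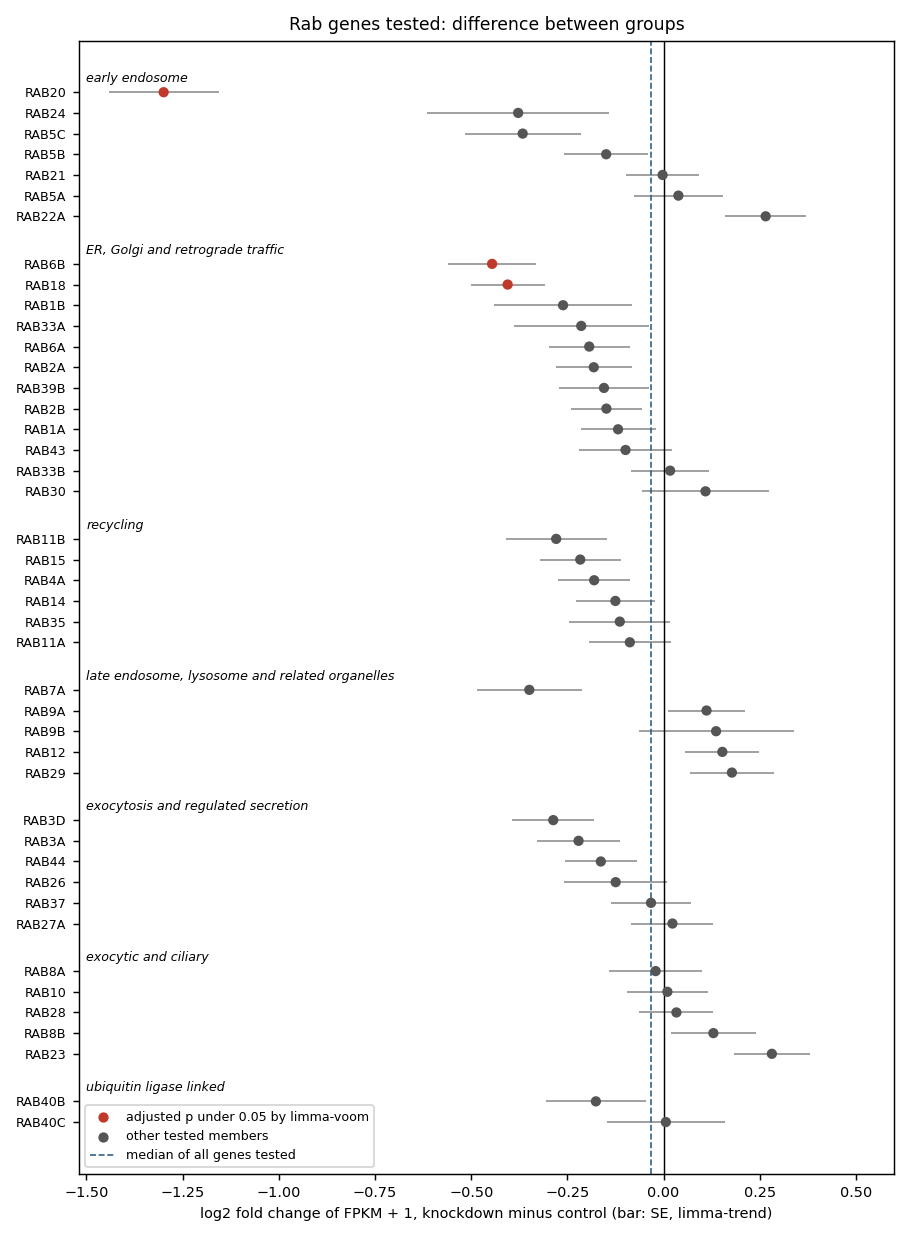
Log2 fold change, knockdown minus control, of the 43 tested Rab genes with its SE by limma-trend, grouped by role. Red points passed an adjusted p of 0.05 by limma-voom, the dashed line is the median of all genes tested (-0.03), and RAB20 at -1.30 stands apart from the other members, which lie between -0.45 and 0.28.

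Over the whole family 29 of 43 tested members had lower means (67.4%), against 54.3% of all genes. The median fold change was -0.12 against -0.03 over all genes. Level was not matched, with a median of 10.96 FPKM in the tested Rab genes and 6.64 FPKM over all genes tested. Among genes averaging at least 5 FPKM the median fold change was -0.149 in 34 Rab genes and -0.107 over all 7743 genes. Lower means held for 3 of 3 Rab genes at 50 FPKM or more. They held for 15 of 21 at 10 to 50 FPKM and for 11 of 19 at 1 to 10 FPKM. Whether level accounts for the Rab difference was not tested. Both knockdown libraries lay under both controls for 19 members and over both for 6, against 34.6% and 26% of all genes. When library totals were sums of reads, all genes moved up together, and the Rab median of 0.01 stood beside 0.08 over all genes, with lower means in 20 members (46.5%) against 39.2% of all genes. Under quantile normalization the Rab median was 0.00 against 0.01, with lower means in 18 members (41.9%) against 49.0% of all genes, so the Rab share was then the smaller one. Set against the controls, knockdown library 1 had a Rab median of -0.15 against -0.05 over all genes, and knockdown library 2 one of -0.04 against -0.01.

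Fold changes also varied with exon length. Over all 13172 genes the Spearman correlation of fold change with merged exon length was 0.22, and over the 43 Rab genes it was 0.25, a description across genes of the same 4 libraries. RAB20 has 1518 bases of exon and RAB6B and RAB18 have 6005 and 6223. After a smooth trend on exon length was removed the fold changes of RAB20, RAB6B and RAB18 were -1.17, -0.46 and -0.43, RAB20 passed limma-trend (adjusted p = 0.0269), and the Rab median was -0.07. The same correction took RAB22A from 0.27 to 0.15 and RAB7A from -0.35 to -0.22. RAB21, with 16036 bases of exon, went from -0.0025 to -0.22, while RAB23 went from 0.28 to 0.31. Whether exon length is the cause of such shifts was not tested.

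**Figure D4:**
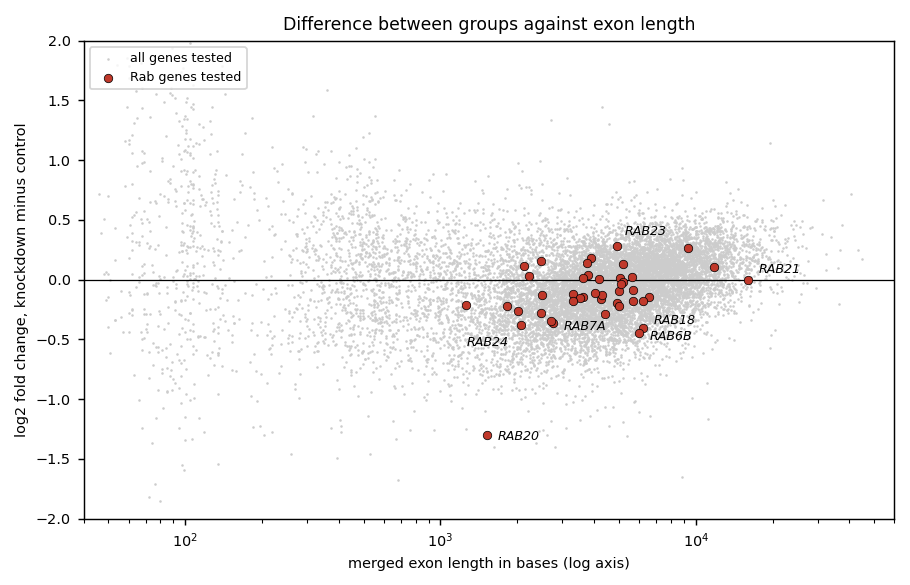
Log2 fold change, knockdown minus control, of all 13172 genes tested (grey) and of the 43 Rab genes tested (red) against merged exon length in bases on a log axis. RAB20 is at -1.30, with 28 genes at a lower fold change, the other members lie within the grey cloud, and 23 genes fall outside the axes.

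The proteins that act on Rabs were read from a list of 122 escort proteins, GEFs, GAPs and effectors, of which 117 had a row and 101 were tested. By limma-trend 0 passed the threshold, with 6 lower and 8 higher at an unadjusted p under 0.05, against 14.9% and 8.51% of all genes. Limma-voom called 1 lower and 4 higher, against 5.80% and 1.94% of all genes. Their median fold change was 0.04, and 45 of 101 had lower means, against -0.03 and 54.3% of all genes. With sums of reads as totals the median was 0.16 and 27 had lower means (all genes 0.08), and under quantile normalization 0.07 and 39 (all genes 0.01). The tested genes of this list had a median of 7056 bases of exon, against 4267 over all genes tested. After the length trend was removed their median was 0.0036 and 49 had lower means (all genes -0.03).

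The escort and GDI class was mostly lower, in 7 of 9 members (median -0.15), where 54.3% of all genes had lower means. With sums of reads its median was -0.03 (all genes 0.08) and after the length correction -0.08 (all genes -0.03), with 6 of 9 lower in each. RABAC1, the prenylated Rab acceptor of the Golgi, had 5.81 and 7.43 FPKM in knockdown libraries, against 11.7 and 10.8 FPKM in controls, and fell by limma-voom (-0.76 ± 0.17, adjusted p = 0.0276). The exchange factors leaned the other way, with 20 of 29 tested members higher (median 0.14), and 19 of these 29 were higher in both knockdown libraries than in both controls, against 26% of all genes. RIN3, an exchange factor for the RAB5 family, had 4.03 and 4.16 FPKM in knockdown libraries, against 2.64 and 2.72 FPKM in controls, and rose by limma-voom (0.61 ± 0.13, adjusted p = 0.0276). DENND1B, an exchange factor for RAB35, had 5.16 and 4.17 FPKM in knockdown libraries, against 2.25 and 3.46 FPKM in controls, and rose by limma-voom (0.73 ± 0.19, adjusted p = 0.0398). The exchange factors have long exons, with a median of 8648 bases against 4267 over all genes tested, and after the length trend was removed their median was 0.03 and 18 of 29 were higher. With sums of reads their median was 0.25 and 3 had lower means (all genes 0.08 and 39.2%). Under quantile normalization these were 0.20 and 8 (all genes 0.01 and 49.0%).

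Effectors had 20 of 34 tested members higher (median 0.05) and GAPs 14 of 29 (median 0.00), where 54.3% of all genes had lower means. RAB11FIP4, a RAB11 effector, had 4.23 and 4.57 FPKM in knockdown libraries, against 2.96 and 2.99 FPKM in controls, and rose by limma-voom (0.57 ± 0.12, adjusted p = 0.0276). It has 15383 bases of exon, and its limma-trend fold change of 0.44 was 0.23 after the length trend was removed. APPL2, an adaptor on RAB5 endosomes, had 7.12 and 6.71 FPKM in knockdown libraries, against 4.97 and 4.88 FPKM in controls, and rose by limma-voom (0.49 ± 0.13, adjusted p = 0.0486). In all 5 of these genes the groups did not overlap, but they were named for calls from the same libraries. Over all genes 34.6% were lower and 26% higher without overlap. Of the GAPs 0 were called by limma-voom or limma-trend, with 3 lower and 3 higher of 29 at an unadjusted p under 0.05 by limma-voom, against 18.1% and 10.3% of all genes.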

How the data were processed

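RNA was measured in 4 libraries (2 per group) prepared with an Illumina TruSeq kit (1 µg input), per the labels' protocols. Reads were aligned with HISAT2 2.0.5 to hg38, per the submitters' processing notes. The sources used here do not name a counter, an annotation or the use of strand. The deposited table names no unit. The authors' values were taken as FPKM because each value times the GENCODE 29 exon length came out as whole steps of 1 size in a library, for 100% of genes (tolerance 0.001 reads), which gave 16693113 to 20251864 recovered reads per library. As the main test, limma-trend (limma 3.58.1, R 4.3.3) was run on log2(FPKM + 1) over genes averaging at least 1 FPKM, adjusted over all of them. Limma-voom ran on recovered reads, scaled by the totals the authors divided by. These divisors were 18436617 and 20480491 for knockdown libraries 1 and 2, above their recovered reads of 16693113 and 20251864. For controls 1 and 2 they were 16648943 and 16789004, below 17597678 and 17216663 reads. Both tests were also run on simulated counts with the same dispersion for every gene and no replicate effect or length trend. That run does not bear on the calls made here. Named genes are those called by either test, those with an unadjusted p under 0.05 and a mean of at least 5 FPKM, the highest member of each role group and the 3 highest and 3 lowest fold changes, and regulators called by either test, while other members are given to account for the family. Each Rab gene was assigned to a single role group for this report, so counts by group depend on that choice. Members, role groups, lists and tests were chosen with earlier results of these data known.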

Additional observations from a re-analysis of the deposited data

How the results depend on the processing

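Over all genes the 27 calls became 781 with a replicate block, 45 under quantile normalization, 76 when library totals were sums of reads, 0 with no filter on low values, 181 with a mean of at least 5 FPKM, 1019 by limma-voom, 92 after the exon length correction and 0 to 406 without 1 library. Lower Rab calls, 0 in the main test, were 1 (RAB20) with the replicate block, the sum of reads, a mean of at least 5 FPKM, a pseudocount of 5 and the exon length correction, 3 by limma-voom and 0 to 1 without 1 library. Higher Rab calls by limma-trend were 0 under each of these settings. Regulator calls, 0 in the main test, were 2 with the replicate block, 1 with a mean of at least 5 FPKM, 5 by limma-voom and 0 to 2 without 1 library. The limma-voom calls of 3 lower and 0 higher Rab genes were 2 lower (RAB20 and RAB6B) with the replicate block, 1 lower with the sum of reads, and 1 to 9 lower and 0 to 1 higher without 1 library, with 10 calls in all without knockdown library 2, where 29.4% of all genes were called. The Rab median of -0.12 was 0.0032 under quantile normalization, 0.0084 with the sum of reads, -0.071 after the length correction and -0.149 to -0.037 without 1 library. With a mean of at least 5 FPKM the Rab median was -0.149, beside -0.107 over all genes. The FYB1 call (adjusted p = 0.0398 by limma-trend) ended with no filter on low values (fold change -1.65) and without either knockdown library, and the fold change was -1.84 to -1.46 without 1 library. Named Rab genes that changed sign were not called: RAB7A, RAB5B and RAB1B under quantile normalization (0.00024, 0.050 and 0.033), RAB26 with the sum of reads and after the length correction (0.0023 and 0.0068) and without 1 library (-0.27 to 0.019), RAB10 (-0.037 to 0.057) and RAB40C (-0.16 to 0.17) without 1 library. The cause was not tested. Equal replicate numbers are not said to mark a shared culture, and deviations of same-numbered libraries correlated at -0.21 over 13172 genes. A crossed block, chosen after seeing the data as were the length correction and the limma-voom alternatives, called 1910 genes, among them 2 Rab genes and 7 regulators. Depth limits the 15 members with fewer than 25 reads in every library, while RAB3B and RAB4B were left out by the minimum per kilobase.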
